A study of Mus musculus with 4 samples.

Results

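The 10 genes described here encode the receptors for growth hormone, prolactin, insulin and the insulin-like growth factors, with the adaptors and transcription factors that act next to them. They are Ghr, Prlr, Igf1r, Igf2r, Insr, Irs1, Irs2, Stat5a, Stat5b and Socs2. They were taken by symbol from the tables, and all 10 were found among the 17762 genes listed in at least 1 of the 4 libraries. The set was chosen by the measured knockout against wild-type difference of Ghr, its lead gene, in these same libraries, so the values of that contrast are a description and carry no test of their own. Polyadenylated RNA was sequenced from intestinal adenomas, labelled as colon, of C57BL/6 mice aged 110 days. All mice carried the ApcMin allele, an Apc mutation that gives rise to intestinal tumours. The genotypes were ApcMin Strap WT (libraries WT1 and WT2, after their replicate numbers) and ApcMin Strap KO (libraries KO1 and KO2), the latter written as StrapIEKO in the series' design text. Strap encodes a WD-repeat protein. The sources used here give neither the deleted part of the gene, nor the driver of the deletion, nor the number of animals behind a library.

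Growth hormone and prolactin bind single-pass receptors of the class I cytokine receptor family, which have no kinase of their own and signal through the bound kinase JAK2 to STAT5A and STAT5B. STAT5 then switches on genes that include Socs2, whose product marks the growth hormone receptor for degradation. Insulin and IGF1 instead bind receptor tyrosine kinases, encoded by Insr and Igf1r, which phosphorylate the adaptors IRS1 and IRS2 and so activate PI3K and AKT. IGF2R is different again, since it binds IGF2 and carries it to the lysosome without sending a growth signal. In the intestinal epithelium, growth hormone and the IGFs are known for promoting crypt growth, and the liver is the main site of growth hormone action in the body.

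The libraries held 14084814 to 15640931 expected counts. Strap stood at 61.3 (WT1), 43.8 (WT2), 7.40 (KO1) and 10.01 (KO2) FPKM, so the target was lower in both libraries labelled KO. FPKM is the level per unit of transcript length and of sequencing depth. The small intestine marker genes, 7 in all, summed to between 7000 and 13190 FPKM per library, but did not move together. Fabp6 and Slc10a2 were highest in WT2 and lowest in KO2, and all other markers of this list were lowest in WT2. Fabp6 was at 952 (WT1), 5605 (WT2), 1860 (KO1) and 279 (KO2) FPKM, and Gata4 at 40.4, 8.25, 43.5 and 51.4 FPKM in that order. Whether the libraries differ in position along the gut was not tested. Of 6 colon markers, Slc26a3 was high and 4 stayed below 1 FPKM in every library. Each genotype held 1 library with high Xist (replicate 1) and 1 with the Y-linked genes Ddx3y, Eif2s3y, Kdm5d and Uty at 4.48 FPKM or more (replicate 2). Xist was at 54.7 FPKM in WT1 and at 10.5 FPKM in KO1, so its level differed within the Xist-high pair. WT1 stood apart in some genes of other cell types, and KO2 in T and natural killer cell genes, which summed to 292 FPKM there and to between 27.7 and 50.2 FPKM elsewhere. The epithelial markers Epcam, Krt8 and Vil1 were high throughout, and the 9 epithelial markers summed to between 5746 and 7814 FPKM. In bulk RNA, fewer cells of a type and less RNA per cell cannot be told apart.

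The stretches just before the transcription start are shown for Ghr, the lead gene, and for a member of each branch whose window held matches to more than 1 of the motifs searched. The RefSeq promoter table for GRCm38.p6, the same build as mm10, holds 13 windows for 8 of the 10 genes. Insr and Socs2 had none. The 250 bases before each start were searched on both strands for the STAT recognition sequence TTCNNNGAA (named GAS), the FOXO sequence TGTTTAC, the TCF sequence CTTTGAT, the E-box CACGTG and the CCAAT box. The GAS sequence and the E-box read the same on both strands. No TCF match overlapped a FOXO match in the windows shown. Capitals mark every match in the 4 windows shown, 2 for the lead gene and 1 each for a cytokine receptor and an insulin adaptor.
Ghr, upstream start, chr15:3583353-3583602, minus strand: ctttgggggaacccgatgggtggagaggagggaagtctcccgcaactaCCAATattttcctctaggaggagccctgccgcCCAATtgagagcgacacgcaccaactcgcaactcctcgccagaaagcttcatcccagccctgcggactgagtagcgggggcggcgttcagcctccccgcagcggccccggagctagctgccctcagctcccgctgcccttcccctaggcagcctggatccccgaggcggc
Ghr, downstream start, chr15:3581843-3582092, minus strand: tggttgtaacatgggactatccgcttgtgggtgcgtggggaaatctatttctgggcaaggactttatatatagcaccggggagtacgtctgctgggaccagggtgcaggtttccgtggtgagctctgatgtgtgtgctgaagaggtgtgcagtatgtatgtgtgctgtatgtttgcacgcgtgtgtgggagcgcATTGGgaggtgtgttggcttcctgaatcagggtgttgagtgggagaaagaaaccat
Prlr, middle start, chr15:10223656-10223905, plus strand: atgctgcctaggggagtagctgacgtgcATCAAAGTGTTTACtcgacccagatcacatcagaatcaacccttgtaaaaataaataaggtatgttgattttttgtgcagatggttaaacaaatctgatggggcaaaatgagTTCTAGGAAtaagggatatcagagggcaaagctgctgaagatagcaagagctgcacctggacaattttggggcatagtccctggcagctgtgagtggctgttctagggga
Irs2, chr8:11008930-11009179, minus strand: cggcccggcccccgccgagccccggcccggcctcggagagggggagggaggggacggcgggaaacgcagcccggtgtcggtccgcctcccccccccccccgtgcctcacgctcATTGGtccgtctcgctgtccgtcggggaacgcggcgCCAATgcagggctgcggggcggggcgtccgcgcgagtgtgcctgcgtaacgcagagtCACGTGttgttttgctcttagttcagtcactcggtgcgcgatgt
The upstream Ghr window was 65.6% G and C with 17 CG pairs, against 52.0% and 8 in the downstream one and a median of 52.4% over all 32851 windows. Both Ghr windows held CCAAT boxes, as did 33.8% of all windows, and neither held the letters of the other 4 motifs. The GENCODE counterpart of the long Prlr form starts downstream of the first Prlr window, which held a CCAAT box alone. The middle Prlr window held a GAS match (TTCTAGGAA), a FOXO match and a TCF match. Of all windows 7.02% held a GAS match, 3.17% a FOXO match and 3.21% a TCF match. The Irs2 window had an E-box starting 44 bases before the start, and 6.02% of all windows had one. Among the 13 windows the E-box was present in 3, those of Igf2r, Irs1 and Irs2. A match is a run of letters, and binding was not measured.

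Per length of transcript, the 10 genes covered a wide range of levels. In WT the order by mean FPKM ran from Socs2 (37.9 ± 11.9, SD, n = 2) through Prlr (15.7 ± 3.22), Igf2r (15.2 ± 0.983), Ghr (10.03 ± 2.44), Insr (9.64 ± 1.37), Stat5b (5.53 ± 0.149), Irs2 (5.27 ± 0.700), Stat5a (3.03 ± 0.516) and Igf1r (2.73 ± 0.389) to Irs1 (0.225 ± 0.149). Prlr and Igf2r differed in WT by less than the SD of either, and so did Ghr and Insr, and Stat5a and Igf1r, while Stat5b and Irs2 differed by less than the SD of Irs2. In KO the neighbours Stat5b and Insr, and Irs2 and Stat5a, differed by less than the larger SD. In KO, Socs2 stayed first at 36.0 ± 2.51 FPKM and Irs1 last at 0.105 ± 0.0212 FPKM. Ghr went from rank 4 in WT to rank 9 in KO, while no other member moved by more than 2 ranks.

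**Figure D1:**
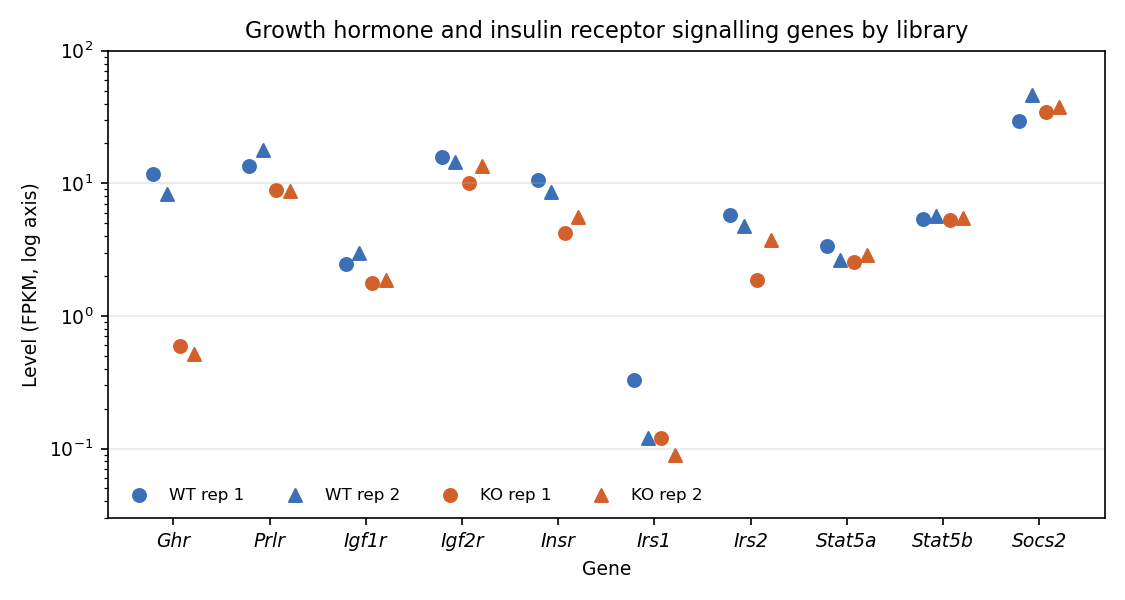
Level of each of the 10 genes in each library, in FPKM on a log axis; blue is WT, orange KO, circles replicate 1 and triangles replicate 2. Ghr lies at 8.30 FPKM or more in both WT libraries and at 0.590 FPKM or less in both KO libraries, while the points of Stat5b lie together.

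The growth hormone receptor gene Ghr showed the widest gap. Ghr lies on chromosome 15 from 3317755 to 3583352 in mm10. It had 469 (WT1), 399 (WT2), 32 (KO1) and 23 (KO2) expected counts, or 11.8, 8.30, 0.590 and 0.520 FPKM in that order. Both KO libraries were low, both WT libraries were high, and the groups were far from overlapping. Scaled to a common total with TMM factors, Ghr stood at 28.0 ± 2.97 CPM (TMM-scaled counts, relative to the library total) in WT and 1.88 ± 0.437 CPM in KO, 6.70% of the WT value (fitted log2 fold change -3.89, SE 0.34). Ghr was at 7.26% of WT in the pair of libraries with high Xist and at 6.05% in the pair with Y-linked genes. Of all 12769 genes tested, 1.0% had a fitted log2 fold change as low as that of Ghr or lower.

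Ghr is also known as a gene of hepatocytes, adipocytes and fibroblasts, so markers of these cells are given beside it. The hepatocyte gene Alb was at 2.67 FPKM in WT1 and 0.03 FPKM in WT2, and was not listed in KO. Of the 7 hepatocyte markers 4 stayed below 1 FPKM in every library, and the list summed to 12.8 and 11.3 FPKM in WT and 5.29 and 6.13 FPKM in KO, mostly from Ttr. Ttr was at 8.48 and 8.73 FPKM in WT and 4.88 and 4.73 FPKM in KO. Serpina1c (0.76 and 0.74 FPKM in WT, 0.11 and 0.33 in KO) was also lower in both KO libraries. So was Cyp2e1 (0.54 and 0.69 FPKM in WT, 0.08 and 0.26 in KO), while Apoh overlapped. The part of this list in the Ghr difference was not tested. The adipocyte genes Adipoq, Plin1, Lep and Retn were not listed in any library, and Cidec made up most of the list's 4.07 to 25.7 FPKM. The fibroblast list summed to 26.7 and 18.5 FPKM in WT and 23.9 and 30.7 FPKM in KO, of which Fbln1 made up 16.4 to 28.8 FPKM, while the collagen gene Col1a1 was at most 0.270 FPKM. The fibroblast receptor gene Pdgfra was at 0.850 FPKM in WT1 and at most 0.05 FPKM in the others. Some other markers were highest in WT2, where Apoh was at 1.10 FPKM and the pericyte and fibroblast receptor gene Pdgfrb at 1.38 FPKM. The part of the adipocyte and fibroblast lists was not tested either.

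The tables also give a gene length that follows the transcripts in use, since RSEM weights the length of each transcript by its abundance. Among genes listed in all 4 tables, all 9366 with a single transcript had 1 length throughout, and 3850 of 4359 with several transcripts had lengths that differed between libraries. Ghr has 3 RefSeq transcripts in the tables. Their GENCODE counterparts are 1171, 2749 and 4175 bases long. The shortest encodes 297 residues, the form known as growth hormone binding protein, which lacks the membrane-spanning part, and the other two encode the receptor of 650 residues. The weighted length of Ghr was 2644 (WT1), 3209 (WT2), 3528 (KO1) and 3208 (KO2) bases. WT1 was lowest and KO1 highest, and the replicates 2 of both genotypes lay within 2 bases of each other. The KO lengths rest on 32 and 23 counts, and the size of shift these could show was not tested.

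**Figure D2:**
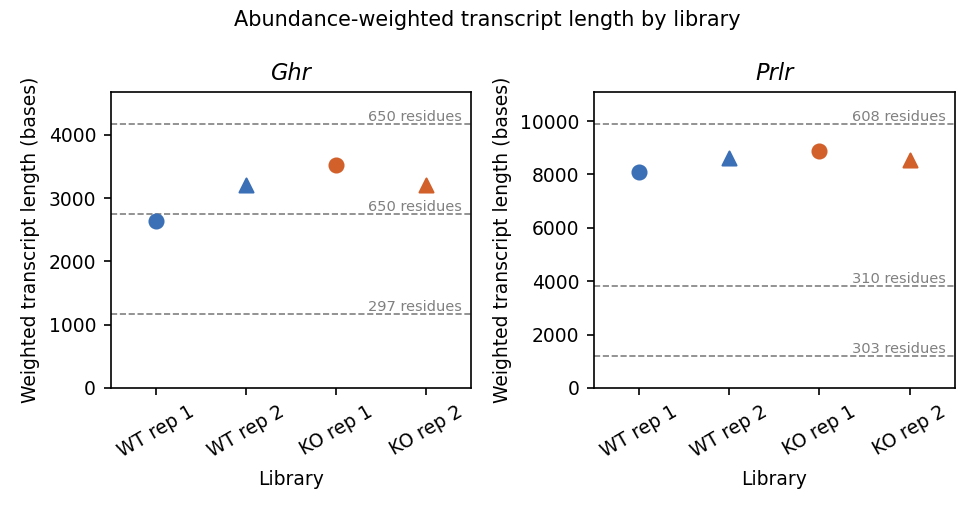
Abundance-weighted transcript length of Ghr (left) and Prlr (right) in bases for each library, with dashed lines at the lengths of the GENCODE counterparts of the RefSeq transcripts and the residues they encode. Ghr lies between 2644 and 3528 bases, and Prlr at 8106 bases or more in all 4 libraries, nearest to the long receptor form.

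The prolactin receptor gene Prlr, the closest relative of Ghr in the set, was far more abundant in KO than Ghr. It was at 13.4 (WT1), 17.97 (WT2), 8.86 (KO1) and 8.68 (KO2) FPKM. The groups did not overlap, with 59.6% of the WT CPM left (fitted log2 fold change -0.75, SE 0.25). Within the Xist-high pair 78.2% was left and within the Y-linked pair 46.6%, so the size differed between the pairs. Without WT2 the log2 fold change was -0.47. The counterparts of its RefSeq transcripts are 1190, 3836 and 9900 bases long and encode 303, 310 and 608 residues, the last being the long signalling form. Its weighted length was 8106 and 8605 bases in WT and 8866 and 8554 bases in KO, and the groups overlapped.

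The receptors for insulin and the IGFs were lower in KO by less than Ghr. The insulin receptor gene Insr, on chromosome 8 from 3150922 to 3279649, was at 10.6 and 8.67 FPKM in WT and at 4.19 and 5.54 FPKM in KO. KO held 51.3% of the WT CPM (fitted log2 fold change -0.96, SE 0.21), and the groups did not overlap. Insr was at 42.6% in the replicate 1 pair and 61.9% in the replicate 2 pair. The IGF1 receptor gene Igf1r was at 2.45 and 3 FPKM in WT and at 1.77 and 1.85 FPKM in KO, a fitted log2 fold change of -0.55 (SE 0.22). Igf2r, the IGF2 clearance receptor gene, was at 15.9 and 14.5 FPKM in WT and at 10.02 and 13.6 FPKM in KO (-0.34, SE 0.21, and -0.21 without KO1). For both genes KO lay below WT without overlap, though KO2 came within 1 FPKM of WT2 for Igf2r.

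Of the insulin receptor substrates, Irs2 was the abundant one. Irs2 was at 5.76 and 4.77 FPKM in WT and at 1.87 and 3.75 FPKM in KO, with a fitted log2 fold change of -0.90 (SE 0.37). KO1 was the lowest, and the groups did not overlap. Without KO1 the value was -0.53, and without KO2 it was -1.40. Irs1 was near the lower end of what the tables list, at 0.330 and 0.120 FPKM in WT and 0.120 and 0.0900 FPKM in KO. The 4 libraries held 47 (WT1), 17 (WT2), 17 (KO1) and 11 (KO2) counts. The fitted log2 fold change of Irs1 was -1.10 (SE 0.76) and became -0.22 without WT1, the library that held most of its counts.

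The genes downstream of the growth hormone receptor had fitted values near 0. Stat5b, the STAT5 gene best known for growth hormone action, was at 5.42 and 5.63 FPKM in WT and at 5.25 and 5.46 FPKM in KO, where 99.5% of the WT CPM was left (fitted log2 fold change -0.01, SE 0.21). Stat5a, known for its part in prolactin signalling in the mammary gland, was at 3.39 and 2.66 FPKM in WT and 2.53 and 2.86 FPKM in KO (-0.16, SE 0.32). The groups overlapped for both. Stat5a and Stat5b are close paralogs, and RSEM shares reads between them, so their split is an estimate. The feedback inhibitor gene Socs2, a target of STAT5, was at 29.4 and 46.3 FPKM in WT and at 34.2 and 37.8 FPKM in KO (-0.03, SE 0.27). Both KO values lay between the WT values. Without WT1 the Socs2 value was -0.34, and without WT2 it was 0.35.

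In the edgeR quasi-likelihood test across all 12769 genes, 0 of the 10 genes passed a Benjamini-Hochberg adjusted p of 0.05 in either direction, beside 0.0% of all genes called lower and 0.00783% called higher. At an unadjusted p under 0.05 there were 4 members, all lower (Ghr, Prlr, Igf1r and Insr), beside 8.69% of all genes lower. DESeq2 called 2 lower, Ghr and Insr, beside 3.32% of all genes, and limma on FPKM called 0 of the 10, as it did of all genes. In 6 of the 10 the KO libraries were the lowest pair in CPM, beside 24.6% of all genes, and in 0 above, beside 25.5%. The median fitted log2 fold change was -0.65 over the 10 genes and 0.00 over all genes. Other settings gave the following shares of all genes called lower and higher. With no filter, where Ghr was called lower, they were 0.0451% and 0.107%. With a replicate block, where Ghr was called lower, they were 0.548% and 0.36%, and with the numbers crossed, Ghr again called lower, 0.775% and 0.509%. Without WT2, where Ghr was called lower, they were 1.04% and 0.321%. With at least 50 counts in at least 2 libraries 0 members were called, beside 0.0% and 0.00916%. DESeq2 called 1.82% higher and no member. Since the set was assembled with this contrast known, nothing is read from these shares. All 10 passed the filter on low counts.

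**Figure D3:**
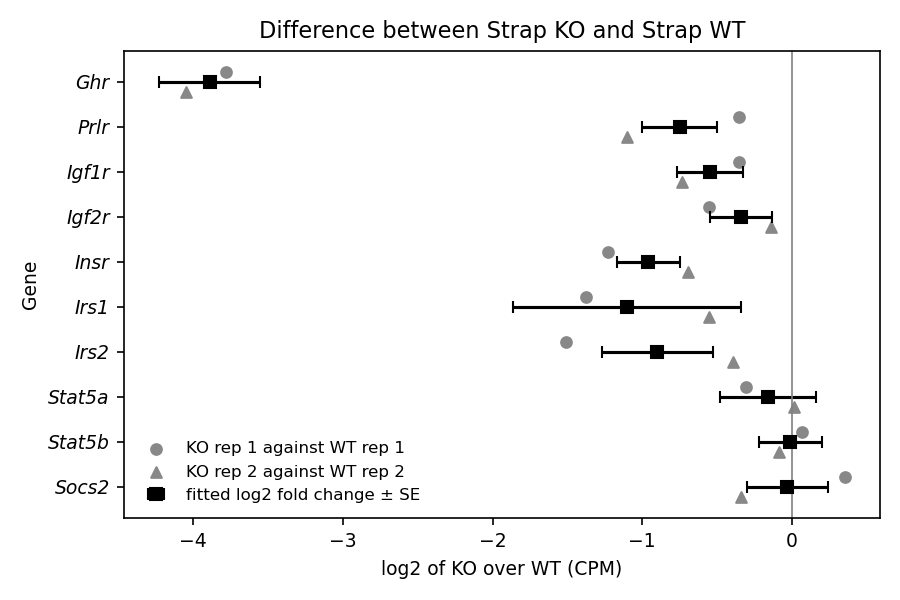
Fitted log2 fold change of KO over WT for each gene (black squares, bars are SE) with the log2 CPM ratio of the replicate 1 libraries (grey circles) and of the replicate 2 libraries (grey triangles). Ghr stands at -3.89, the next lowest is Irs1 at -1.10, and Stat5a, Stat5b and Socs2 lie near 0.

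The other genes of these pathways were followed in 6 lists with 126 genes, of which 97 could be tested. None passed the adjusted threshold in edgeR. At an unadjusted p under 0.05 there were 12 lower and 4 higher, beside 8.69% and 7.08% of all genes. DESeq2 called 6 lower (Bcl6, Insrr, Htra1, Txnip, Fbxo32 and Il22ra1) and 1 higher, beside 3.32% and 1.82% of all genes. With limma 0 were called, as of all genes. The lists were chosen with earlier results of these data known, so nothing is read from these shares. Adjusted p values below are from edgeR over all genes.

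Next to the receptors, 25 of 26 genes of kinases, phosphatases, adaptors and feedback inhibitors were tested, with 12 higher, 13 lower and a median log2 fold change of -0.01. Jak2, the kinase bound to GHR and PRLR and named after its values were seen, was at 29.8 and 23.6 FPKM in WT and at 21.1 and 30.1 FPKM in KO, so the groups overlapped. Grb7, an adaptor that binds activated receptors, was at 56.4 and 70.8 FPKM in WT and 36.1 and 40.9 FPKM in KO (log2 fold change -0.69, adjusted p = 0.249). Grb14, an inhibitor of the insulin receptor, was at 1.69 and 0.890 FPKM in WT and 0.470 and 0.0700 FPKM in KO (-2.15, 0.351), with values of -4.09 without KO1 and -1.37 without KO2. Ptpn6, the phosphatase SHP1, had a value of -0.58 (0.322).

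In the list of ligands, binding proteins, proteases and related genes, only 6 of 22 genes passed the filter on low counts and were tested. Igfbp3, with 166 counts in WT1 and 1 in WT2, did not pass. Among the 6 tested, Igf2 was the only ligand gene and Igfbp4 the only IGF-binding protein gene. Of the 6 tested genes 5 lay below 0 and 1 above, around a median of -0.53. Without WT1 the split was 3 and 3 and the median -0.12, and the median was -1.02 without WT2 and -1.87 without KO2. With no filter, 17 genes of the list had a value, 15 lower and 2 higher. Their median was -3.30, beside -0.02 over all genes in that setting, so the list depends on the filter. The genes for the hormones themselves, Gh, Prl, Ins1 and Ins2, were not listed in any library, and Igf1 had 11 counts in WT1 and 3 in KO1. Insrr, which encodes a receptor related to the insulin receptor that senses alkaline pH, was at 1.04 and 2.12 FPKM in WT and at 0.130 and 0.180 FPKM in KO (log2 fold change -3.32, SE 0.60, adjusted p = 0.147). Its KO libraries held 10 and 13 counts, against 81 and 163 in WT. Igf2 was at 1.84 and 1.59 FPKM in WT and 1.86 and 1.53 FPKM in KO (-0.33 on counts, 0.723). Igfbp4, the most abundant IGF-binding protein gene here, was at 58.1 FPKM in WT1 and between 23.0 and 24.5 FPKM in the other 3 libraries (-0.73, 0.452), and its value was 0.07 without WT1 and -1.25 without WT2. Htra1, a secreted protease gene, was at 9.53 (WT1), 0.530 (WT2) and 0.03 (KO1) FPKM and missing from the KO2 table (adjusted p = 0.210). Most of its counts came from WT1, and no fold is given because a library lists none.

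The PI3K, AKT and mTOR list divided evenly, with 17 of 34 tested genes higher, 17 lower and a median of -0.01. Its lowest named values were those of Sgk1, a kinase gene related to AKT (153, 39.5, 36.4 and 5.98 FPKM in WT1, WT2, KO1 and KO2, log2 fold change -2.10, adjusted p = 0.364), and Rictor, a subunit gene of mTOR complex 2 (6.75 and 5.51 FPKM in WT, 1.79 and 4.30 in KO, -1.01, 0.297). Sgk1 had a value of -0.83 without WT1, -4.06 without KO1 and -1.31 without KO2, and Rictor of -0.56 without KO1 and -1.69 without KO2. Tsc1, which restrains mTOR, had a value of -0.70 (0.306, and -0.43 without KO1), Pik3r2, a regulatory subunit gene of PI3K, -0.68 (0.278), and the adaptor gene Gab1 -0.47 (0.311).

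Targets of the transcription factors at the end of each branch were counted separately. Of 10 tested STAT5 targets 5 lay above 0 and 5 below, around a median of 0.01, which was 0.42 without KO1 and -0.17 without KO2. Cish, a classic STAT5 feedback target, was at 2.69 and 3.55 FPKM in WT and 3.60 and 4.18 FPKM in KO (log2 fold change 0.36, adjusted p = 0.626, and 0.15 without WT1 against 0.58 without WT2). Ccnd1, the cyclin D1 gene, had a value of 1.01 (0.305), which was 0.55 without WT1 and 1.66 without WT2. Bcl2l1, a survival gene, had a value of -0.33 (0.506), which was -0.11 without WT1 and -0.54 without WT2. Bcl6, a repressor gene on both target lists, was at 5.29 and 5.56 FPKM in WT and 2.58 and 1.91 FPKM in KO (-1.22, 0.227).

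FOXO factors are held in the cytoplasm when insulin signalling is active. Of 14 tested FOXO targets 13 were lower and 1 higher, with a median of -0.71, beside 49.7% of all genes lower and a median of 0.00. The KO libraries were the lowest pair in 8 of the 14, beside 24.6% of all genes. The list was chosen with earlier results of these data known, so nothing is read from these shares. Insulin signalling and the place of FOXO in the cell were not measured. Fbxo32, a ubiquitin ligase gene of muscle wasting, was at 1.67 and 2.16 FPKM in WT and 0.560 and 0.570 FPKM in KO (log2 fold change -1.73, adjusted p = 0.180). Txnip, which limits glucose uptake, was at 194 and 173 FPKM in WT and 111 and 94.9 FPKM in KO (-0.79, 0.269), and Bcl2l11, a cell death gene, had a value of -1.05 (0.272, and -0.58 without WT1). Foxo3 itself, named after its values were seen, was at 11.8 and 8.83 FPKM in WT and 4.69 and 7.79 FPKM in KO (-0.71, 0.328, and -0.45 without KO1). The list's median was -0.54 without WT1, with 11 of 14 lower.

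Other cytokine receptor genes were mixed, and the list was not limited to the class I family of Ghr and Prlr. Of 12 tested cytokine receptor genes 9 lay below 0 and 3 above, around a median of -0.27. The median was -0.01 without KO1, with 6 of 12 below 0, and -0.78 without KO2, with 10 of 12 below 0. The interleukin 22 receptor gene Il22ra1, of the class II family, was at 29.2 and 27.0 FPKM in WT and 13.7 and 16.1 FPKM in KO (log2 fold change -0.89, adjusted p = 0.187). Lifr, the receptor gene for leukaemia inhibitory factor, was at 0.780 FPKM in WT1 and at most 0.1 FPKM in the other libraries (-2.43, 0.341), with a value of -0.35 without WT1. Crlf2, a chain of the thymic stromal lymphopoietin receptor, was at 4.93 and 4 FPKM in WT and 8.80 and 9.49 FPKM in KO (1.03, 0.271). Il13ra1, an interleukin 13 receptor gene, had a value of 0.59 (0.273).

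**Figure D4:**
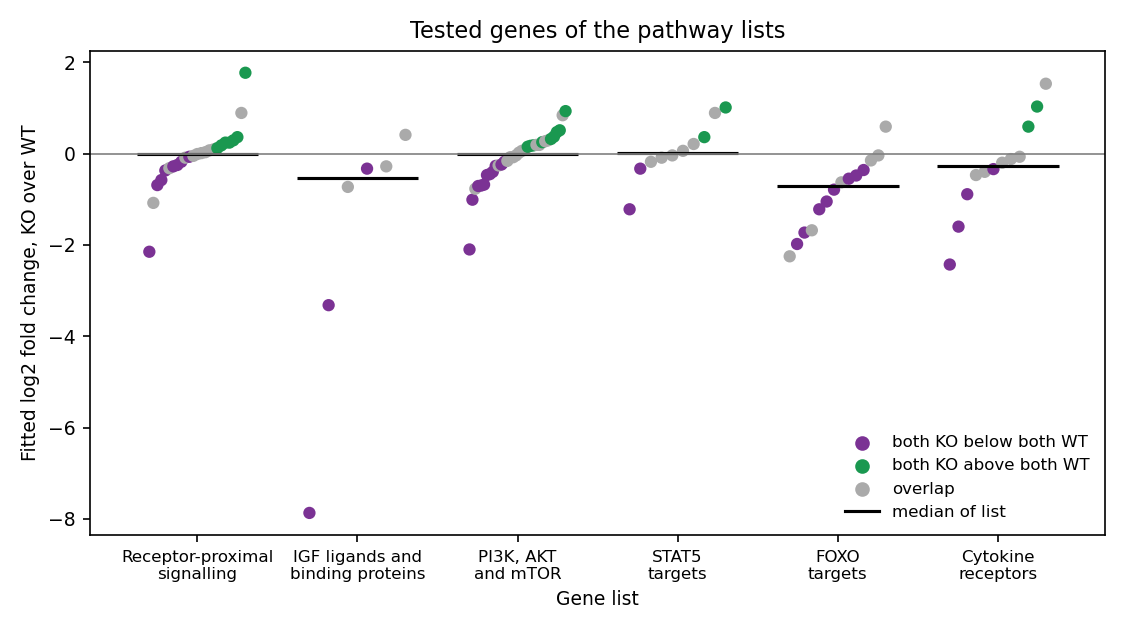
Fitted log2 fold change of KO over WT for the tested genes of the 6 lists, each point a gene, with bars at the medians; purple points have KO below WT without overlap, green points above, and grey points overlap. The FOXO target median is -0.71 and the receptor-proximal median -0.01; the lowest point is Htra1, not in the KO2 table.

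The genes whose profile over the 4 libraries was most like that of Ghr were found by the root mean square difference of log2(FPKM + 0.1), after centring each gene on its mean, among 11250 other tested genes with a mean of at least 1 FPKM. The nearest was Iyd, an iodotyrosine deiodinase gene, at 7.05 and 7.73 FPKM in WT and 0.430 and 0.480 FPKM in KO (difference 0.259). It was followed by Pls3, Bmp1, Sycn, Pnliprp1, Akr1c14, Large and Gm9994, with differences from 0.408 to 0.516. Sycn and Pnliprp1 are known from pancreatic acinar cells. The acinar list, of which Ghr's neighbours are not part, summed to 19.8 (WT1), 3.84 (WT2), 5.72 (KO1) and 9.07 (KO2) FPKM, with groups that overlapped. Cela1 made up nearly all of it, at 19.5, 3.84, 5.64 and 9.07 FPKM in that order, and the other 5 markers were below 1 FPKM or not listed in every library. Akr1c14, an aldo-keto reductase gene, was the most abundant of these in both genotypes, at 22.1 and 26.6 FPKM in WT and 2.98 and 2.52 FPKM in KO. Only 3 of the 8 stayed among the 8 nearest with log2(FPKM + 1), and 4 with log2 CPM. Of the other members, Insr came nearest to Ghr at rank 508 (difference 1.49), followed by Irs2 at 654 and Prlr at 804. Socs2, at rank 5583, was the farthest of the 8 members ranked.

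**Figure D5:**
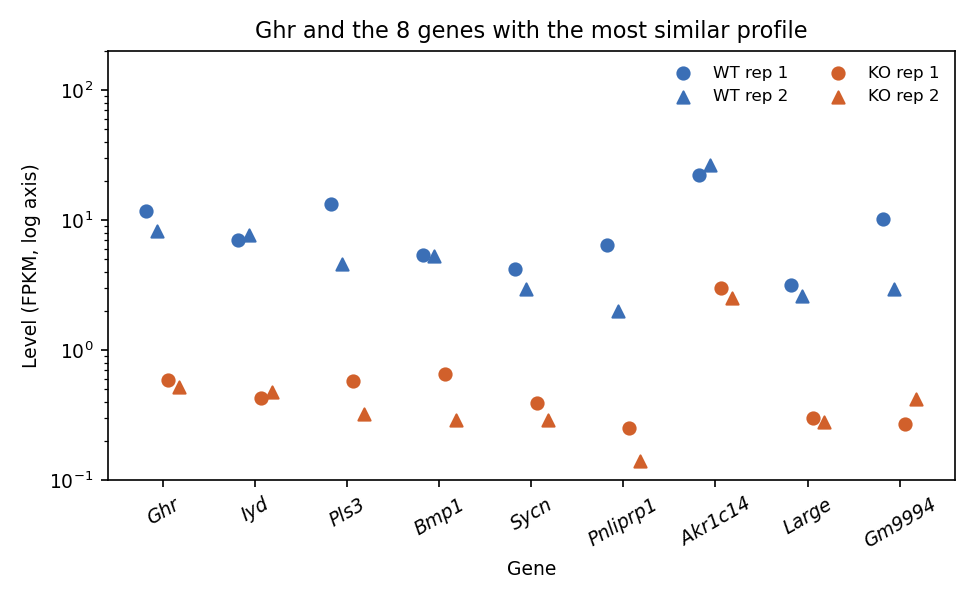
Level in FPKM (log axis) of Ghr and of the 8 genes with the most similar profile in each library; blue is WT, orange KO, circles replicate 1 and triangles replicate 2. Iyd stands at 7.05 and 7.73 FPKM in WT and at 0.430 and 0.480 FPKM in KO, the nearest to the Ghr pattern.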

How the data were processed

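Adenoma RNA of 2 Strap WT and 2 Strap KO libraries was compared. Tools named in the submitters' processing notes, without roles or order, are RSEM 1.2.12 and Bowtie2 2.2.5, with the build mm10. Per the file headers, the deposited tables give RSEM expected counts, FPKM and a gene length in bases. They list genes from 0.01 FPKM upwards, and absent genes are called not listed and were entered as 0 in fits. The sources used here do not say whether counting used strand, so reads of a gene and an antisense neighbour cannot be told apart. The tables were joined on gene identifiers with pandas 2.3.3, 17721 of which were in RefSeq (GRCm38.p6), and 25 symbols turned into dates were restored. A row without a gene, with at most 0.000233% of counts per library, was left out.

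Expected counts were rounded and tested in R 4.3.3 with edgeR 4.0.16 (quasi-likelihood, TMM, filterByExpr, genotype only), called at an adjusted p under 0.05, and the test was tried on simulated data. SE is the log2 fold change divided by the square root of F. The labels do not say how many animals a library holds. Within each genotype the libraries differed in Xist and Y-linked genes, so they were not repeats of 1 animal, and sex is part of the spread between replicates. Replicates differed beyond counting noise (chi-square per degree of freedom 132 in WT and 66.1 in KO). Alternatives used DESeq2 1.42.0 and limma 3.58.1, on log2(FPKM + 1) and log2(FPKM + 0.1), other scalings and filters, a replicate block, and each library left out. The members, gene lists and motifs were chosen with earlier results of these data known. Named are all members, Strap, up to 4 genes of the smallest p per list, those changed at least 2-fold with a mean of at least 1 FPKM and groups apart, and the 8 genes most like Ghr. Other names were chosen after their values were seen. A gene that meets the rule is not reported here.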

Additional observations from a re-analysis of the deposited data

How the results depend on the processing

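Ghr kept its direction and lay between -4.15 and -2.81 in every setting run. Its log2 fold change passed the threshold with no filter (-3.87), in DESeq2 (-3.92) and without WT2, and values with 1 library left out ran from -4.15 to -3.69. The count of members called lower went from 0 to 1 with no filter, to 2 in DESeq2, and from 0 to 1 over the libraries left out. Pathway genes called lower went from 0 to 6 in DESeq2 and from 0 to 1 over the libraries left out, and those called higher to 1 in DESeq2 and from 0 to 1. Over all genes edgeR called 1 higher and 0 lower, against 233 and 424 in DESeq2, 19 and 8 with no filter, 41 and 133 without WT2, and 0 and 0 with library size alone, with limma and without any 1 of the other libraries. Of the 8 genes most like Ghr, 3 were kept with log2(FPKM + 1) and 4 with log2 CPM. The cause was not tested.

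The labels do not tie libraries of the same number together, and the deviations of same-numbered libraries correlated at -0.123 across genes. Same-numbered libraries were alike in having high Xist or the Y-linked genes, so the replicate block also follows that split. Crossing the numbers pairs libraries that differ in it. With the replicate block Ghr was at -3.91 and 1 member was called lower, with 2 pathway genes lower (Sgk1 and Htra1) and 1 higher, and 46 higher and 70 lower over all genes. With the numbers crossed, added after seeing the data, Ghr was at -3.90, 1 member was called lower, and 65 genes were higher and 99 lower. Signs turned near 0 or where 1 library stood out. Over the libraries left out Stat5a ran from -0.31 to 0.00 (without WT1), Stat5b from -0.06 to 0.02 (without WT2 and without KO2), Socs2 from -0.34 to 0.35 (without WT2), Igfbp4 from -1.25 to 0.07, Pck1 from -2.82 to 0.56 and Pdk4 from -6.29 to 3.11 (all 3 without WT1), and Jak2 from -0.26 to 0.12 and 0.13 (without WT1 and without KO1). Stat5b was 0.01 with no filter, and Socs2 0.01 with the block and the crossed block. Irs1 had no value with at least 50 counts in at least 2 libraries. The median of all genes lay between -0.05 and 0.02. Irs1 and the KO values of Ghr and Insrr rest on few counts.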

Other observations

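A set of IGF-handling genes was seen almost only in WT1, and all were chosen after their values were seen. Igfbp1, an IGF-binding protein gene that insulin represses in liver, had 80 counts (3.55 FPKM) in WT1 and was not listed in the other 3 libraries. Igfbp2 had 79 counts there, 2 in WT2 and 1 in KO2. Igfbp3, the main carrier of circulating IGF1, had 166 counts in WT1 and 1 in WT2, and was not listed in KO. Stc1, which encodes stanniocalcin 1, had 126 and 2 counts in WT and was not listed in KO. The stanniocalcin 2 gene Stc2 had 53 and 7 counts in WT and 4 and 2 in KO. Endothelial marker genes summed to 12.4 FPKM in the same library and to between 3.28 and 4.24 FPKM in the others. Cdh5 made up most of this sum in WT1, at 9.10 FPKM against at most 0.17 FPKM elsewhere. The other endothelial markers did not move together. Vwf was highest in WT1 at 0.55 FPKM, Esam in WT2 at 1.46 FPKM and Pecam1 in KO2 at 0.45 FPKM. Lyve1 was lowest in WT1 at 1.65 FPKM and stood at 2.32 FPKM or more elsewhere. Whether these patterns are linked was not tested.

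A pair of fasting-induced genes on the FOXO list, also chosen after their values were seen, overlapped between the genotypes. Pck1, the gluconeogenic enzyme gene, was at 118 and 13.8 FPKM in WT and 29.5 and 9.62 FPKM in KO. Pdk4, which slows glucose oxidation, was at 12.9 and 0.150 FPKM in WT and 2.46 and 0.0800 FPKM in KO. Both were higher in replicate 1, the libraries with high Xist, than in replicate 2 of the same genotype.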
